A study of Mus musculus with 6 samples.

Results

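The 10 secreted Wnt modulators Sfrp1, Sfrp2, Sfrp4, Sfrp5, Frzb, Dkk2, Dkk3, Wif1, Wisp1 and Wisp2 were followed in mouse mesenteric arteries after deletion of beta1 integrin from smooth muscle. They were chosen by name, as every probe set whose only gene symbol in the platform annotation is one of the 10; Wisp1 and Wisp2 are listed there under their current symbols Ccn4 and Ccn5 and were matched through their gene identifiers. This gave 18 probe sets out of 45037 on the array, and 10 genes out of 18193 with a symbol of their own. No member passed the threshold of an adjusted p under 0.05 in limma. Frzb, Sfrp4, Dkk3 and Wisp1 had all 3 knockout arrays above the highest control array, and Sfrp5 had all 3 below the lowest. Of all genes tested, 13.0% were higher and 15.1% lower without overlap in this way. The members were chosen with earlier results of these data known, so these shares are given for scale and test nothing. Frzb was tested only by virtue of its knockout signal.

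Each array carried RNA from the mesenteric arteries, the small arteries that feed the gut, of 1 mouse of mixed background (FVB, SVJ129 and C57BL/6 among others). The 3 control mice (animals 30, 74 and 75) had loxP-flanked beta1 integrin and no Cre, and the 3 knockout mice (animals 72, 73 and 86) had the same floxed gene together with sm22alphaCRE, a recombinase driven by a promoter of smooth muscle. Every mouse, controls included, received 14 doses of 1 mg tamoxifen 24 h apart from the age of 5 weeks and was examined at 7 weeks. Adipose and lymph tissue had been cleared from the vessels. Adipocyte markers still gave signal on every array, with mean log2 values of 9.68 to 11.53 in the controls and 9.85 to 10.85 in the knockouts. Fewer cells of a type cannot be told apart from less RNA per cell in such whole vessels.

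Wnt proteins are secreted signals that bind Frizzled receptors and the co-receptors Lrp5 and Lrp6, and thereby stabilise beta-catenin or act on cell polarity and calcium. Secreted frizzled-related proteins (Sfrp1, Sfrp2, Sfrp4, Sfrp5 and Frzb) and Wif1 bind Wnts outside the cell, while Dickkopf proteins act at the co-receptors. Wisp1 and Wisp2 belong to the CCN family of matrix-associated proteins and were named as genes induced by Wnt1; in the artery wall these proteins are studied for smooth muscle growth and matrix turnover.

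The median deposited intensity per array lay between 62.8 and 72.6, and Pearson correlations between arrays, taken over genes, ran from 0.925 to 0.959 among controls, from 0.945 to 0.969 among knockouts and from 0.877 to 0.940 between groups. Itgb1, the gene of beta1 integrin, differed by -0.73 on the log2 scale (SE 0.22, limma adjusted p = 0.127) with no overlap between the groups. Knockout 86 carries the letter F in its label and the other 5 arrays the letter M; Xist stood at a log2 value of 11.83 in knockout 86 and at 5.29 to 6.09 elsewhere, so results without that array are also results for arrays of 1 sex. Smooth muscle markers (7 of 7 tested) had mean log2 values of 12.41 to 12.94 in the controls and 12.15 to 12.49 in the knockouts, and endothelial markers (7 of 7 tested) of 10.63 to 11.10 and 10.05 to 10.85; none of the 7 mesothelial markers reached the filter described next.

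Of the 10 members, 8 had a probe set whose mean over the 6 arrays reached the filter level of 6.50 on the log2(intensity + 1) scale, and Sfrp2 and Wif1 did not. Where several probe sets reached it, the brightest on average stands for the gene. Among the 8, 0 passed the threshold over the 10654 genes tested (limma, Benjamini-Hochberg), where 2.42% of all genes passed. At an unadjusted p under 0.05 there were 5 of the 8, against 21.4% of all genes. The groups did not overlap for 5 of the 8, as for 28.1% of all genes: 4 were on the higher side, where 13.0% of all genes lay, and 1 on the lower side, where 15.1% lay. The median difference of the 8 was 0.75 on the log2 scale, beside -0.05 over all genes tested. These counts include Frzb, whose mean reached the filter level in the knockouts but not in the controls, so they describe the tested members and support no statement on the group. Over the 7 members whose mean reached that level in both groups, 3 were higher without overlap and 1 lower, 4 had an unadjusted p under 0.05, and the median difference was 0.32. Of the 10288 genes that met the same condition, 12.5% were higher without overlap, 14.7% were lower and 20.3% had an unadjusted p under 0.05, with a median of -0.05. The members were chosen with earlier results of these data known, so the counts over the 7 support no statement on the group either. The share of called genes that were higher moved with the scaling, from 188 of 258 as reported to 160 of 261 with median centring of the arrays.

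**Figure D1:**
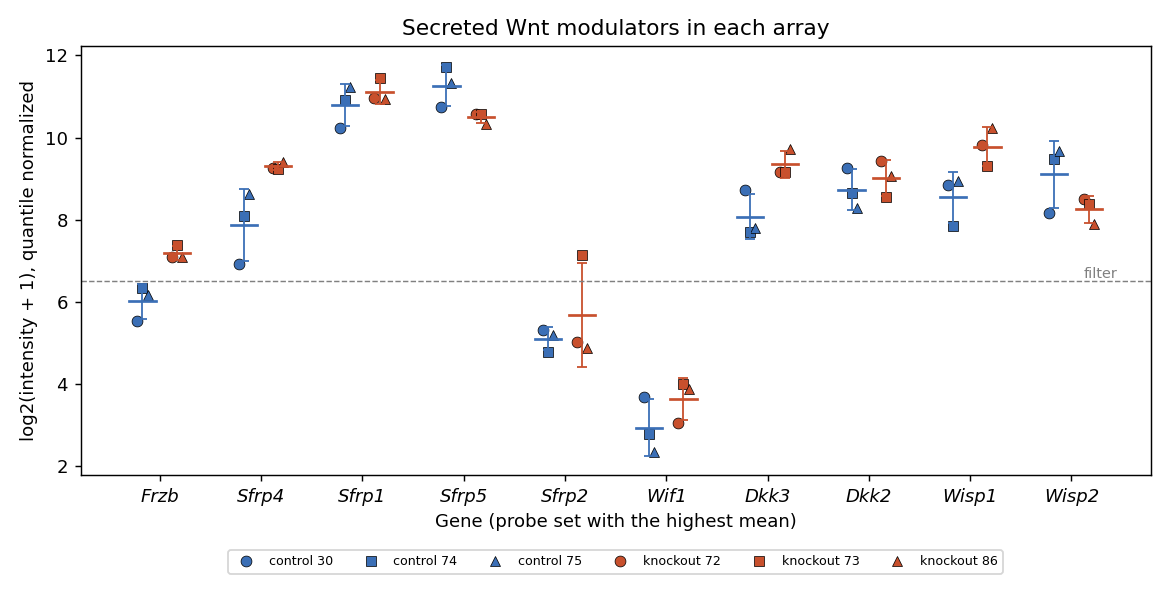
Quantile normalized log2(intensity + 1) of the 10 secreted Wnt modulators (vertical axis) by gene, with 1 point per array (blue control, red knockout), horizontal bars for the group means and vertical bars for the SD (n = 3 per group). Sfrp4, Frzb, Dkk3 and Wisp1 have all red points above all blue points, Sfrp5 has them below, and the dashed line marks the filter level of 6.50, under which Sfrp2 and Wif1 lie on average.

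Frzb, also known as secreted frizzled-related protein 3 and first described in cartilage, came closest to the threshold. Its deposited intensity was 45.3, 74.6 and 68.9 in control arrays 30, 74 and 75 and 144, 168 and 139 in knockout arrays 72, 73 and 86. Every knockout array lay above every control array. The difference was 1.17 on the log2 scale (SE 0.23, 95% confidence interval 0.63 to 1.71, 2.26-fold, limma adjusted p = 0.0542). The control mean of 6.02 ± 0.43 (SD, n = 3) lies under the filter level and the knockout mean of 7.19 ± 0.16 (SD, n = 3) above it, so Frzb was tested only by virtue of its knockout signal. The other Frzb probe set, below the filter, read 22.3, 30.3 and 22.4 in controls and 50.3, 74.9 and 57.6 in knockouts. Its difference was 1.17 (SE 0.24), without overlap. Its mean log2 value of 5.30 lay near the 5.39 of Sfrp2, a signal too low to add support to the first probe set. Frzb passed without control 74 (1.34, limma adjusted p = 0.0489) and stood at 0.93 (limma adjusted p = 0.0627) without control 30. With control 75 or any 1 knockout left out, the limma adjusted p lay between 0.12 and 0.156. It was 0.118 with no filter, and with the filter at the 70th percentile Frzb was not tested.

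Sfrp4, a family member linked to bone and to adipose secretion, had the largest log2 difference among the 8. Its intensity was 120, 261 and 385 in the controls and 624, 595 and 700 in the knockouts. The knockout arrays lay close together, while the controls spread over more than a 3-fold range with control 30 lowest. The log2 means were 7.88 ± 0.88 and 9.30 ± 0.09 (SD, n = 3 each), a difference of 1.42 (SE 0.40, 95% confidence interval 0.47 to 2.37, 2.68-fold, limma adjusted p = 0.12). Without control 30 the difference was 0.94 (limma adjusted p = 0.087), and without control 75 it was 1.80 (limma adjusted p = 0.108).

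Sfrp5, known as a secreted product of fat cells that binds Wnt5a, ran the other way. Its intensity was 1679, 3526 and 2514 in the controls and 1514, 1488 and 1343 in the knockouts. The knockouts were all lower, though control 30 came within a small margin of them. The difference was -0.78 on the log2 scale (SE 0.25, 95% confidence interval -1.36 to -0.19, limma adjusted p = 0.145). The other Sfrp5 probe set read 239, 686 and 291 in the controls and 169, 228 and 163 in the knockouts, a difference of -1.03 (SE 0.41), again without overlap. Control 74 held the highest value on both probe sets, and without it the difference of the first was -0.55 (limma adjusted p = 0.191).

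The stretch of 250 bases before the RefSeq start of Frzb and that of Sfrp5 (GRCm38.p6, each on the minus strand and printed 5′ to 3′ in the sense of its gene) are shown because these frizzled-related genes, the closest to the threshold and one with the opposite sign, stood apart in direction. Frzb lies at chr2:80447397-80447646 and Sfrp5 at chr19:42202253-42202502. Capitals mark CTTTG or its reverse complement CAAAG, the core of the TCF/LEF motif through which beta-catenin acts.
Frzb: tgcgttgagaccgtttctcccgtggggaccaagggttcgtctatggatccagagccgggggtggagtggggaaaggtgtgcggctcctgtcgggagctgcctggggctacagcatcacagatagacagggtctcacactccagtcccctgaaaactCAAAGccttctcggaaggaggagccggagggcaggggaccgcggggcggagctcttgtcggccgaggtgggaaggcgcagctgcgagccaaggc
Sfrp5: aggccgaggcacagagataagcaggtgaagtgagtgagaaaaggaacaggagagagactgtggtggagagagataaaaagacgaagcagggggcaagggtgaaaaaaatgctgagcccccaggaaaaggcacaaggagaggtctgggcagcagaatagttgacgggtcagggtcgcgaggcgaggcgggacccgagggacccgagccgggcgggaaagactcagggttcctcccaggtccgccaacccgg
The RefSeq promoter table held 5 of the 10 members (Frzb, Sfrp2, Sfrp5, Dkk2 and Wif1). The core, searched on both strands, occurs once in Frzb, beginning 94 bases before the start, once each in Dkk2 and Wif1, and in neither Sfrp5 nor Sfrp2. It occurs in 48.6% of the 32851 stretches of this length in the table, so its presence sets no member apart. The longer form CTTTGNN with A or T at both N positions, which contains the core, occurs on either strand in 14.8% of all stretches and in none of the 5; this says only that these letters are not in these windows.

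Sfrp1, the most studied family member in vessels, gave no uniform picture across its 5 probe sets. The probe set with the highest mean, 1428136_at, read 1186, 2017 and 2362 in the controls and 2000, 2706 and 2009 in the knockouts, with overlapping groups and a difference of 0.32 (SE 0.28, 95% confidence interval -0.34 to 0.99, limma adjusted p = 0.54). Control 30 was the lowest of the 6 arrays there, and without it the difference was 0.04 (limma adjusted p = 0.938). It was 0.15 without knockout 73 and 0.55 without control 75 (limma adjusted p of 0.813 and 0.399). Other settings gave less than the reported value too, with 0.08 under array weights, 0.15 for the mean of the probe sets and 0.21 under median centring. On probe set 1448395_at the same array was the highest of the 6, at 558 against 189 and 108 in the other controls and 198, 272 and 212 in the knockouts. Probe set 1438620_x_at likewise read 466 in control 30 and 88.3 to 219 in the other 5 arrays; its suffix x marks probes that can match similar sequences. Over the 6 arrays, 1428136_at and 1460187_at had a Pearson r of 0.80, 1438620_x_at and 1448395_at one of 0.88, and the pairings between these couples ran from -0.70 to -0.45. These correlations describe 6 arrays that share the group difference. The differences of the 5 probe sets lay between -0.08 and 0.34, and the groups overlapped on each.

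**Figure D2:**
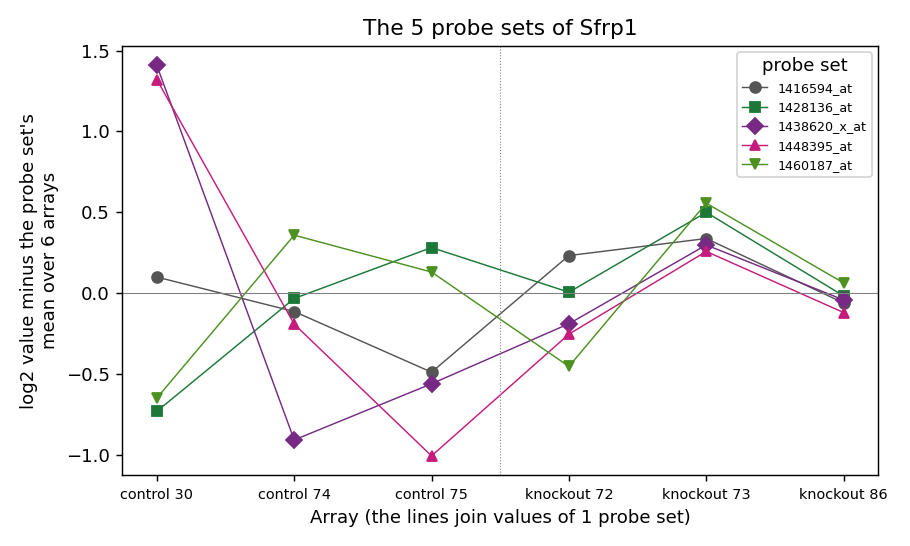
Log2 value of each of the 5 Sfrp1 probe sets minus its own mean over the 6 arrays (vertical axis) in each array (horizontal axis); lines only join the points of 1 probe set, and controls stand left of the dotted line. In control 30 the probe sets 1448395_at and 1438620_x_at lie highest and 1428136_at and 1460187_at lowest, while in knockout 73 all 5 lie above 0.

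Sfrp2 and Wif1 had low signal. Sfrp2 read 38.6, 25.0 and 35.0 in the controls and 33.2, 140 and 28.3 in the knockouts. Knockout 73 alone stood high, the other 5 arrays overlapped, and the exact permutation test (2-sided) gave p = 0.8. Wif1 read 11.9, 5.69 and 4.22 in the controls and 7.30, 15.4 and 13.3 in the knockouts, with overlapping groups (exact permutation p = 0.2; with 3 arrays against 3 the smallest possible p is 0.1). At such signal the arrays cannot show whether either gene differed.

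Among the Dickkopf genes, Dkk3, a divergent member of the family that is not a classical Wnt inhibitor, was higher in the knockouts. Its intensity was 416, 201 and 215 in the controls and 577, 572 and 873 in the knockouts. All knockouts lay above all controls, with knockout 86 highest and control 30 well above the other controls. The difference was 1.27 on the log2 scale (SE 0.30, 95% confidence interval 0.56 to 1.99, 2.42-fold, limma adjusted p = 0.0833). The second probe set read 294, 191 and 291 in the controls and 367, 455 and 534 in the knockouts, a smaller difference of 0.75 (SE 0.24) without overlap. Dkk3 passed without control 30 (1.59, limma adjusted p = 0.0365) and stood at 1.09 (limma adjusted p = 0.224) without knockout 86.

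Dkk2, which binds the Lrp5 and Lrp6 co-receptors, was not distinguishable between groups. It read 605, 395 and 300 in the controls and 698, 377 and 556 in the knockouts, so that both groups covered much the same range. The difference was 0.29 (SE 0.31, 95% confidence interval -0.44 to 1.03, limma adjusted p = 0.62), an interval that still holds a 2-fold increase. The value rested on single arrays, at 0.06 when control 75 was left out and 0.09 when knockout 72 was, against 0.56 with control 30 omitted and 0.52 with knockout 73 omitted (limma adjusted p from 0.296 to 0.943). Array weights gave 0.70 (limma adjusted p = 0.15).

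The CCN genes ran in opposite directions. Wisp1, a matrix-associated protein found in healing and fibrotic tissue, read 457, 220 and 481 in the controls and 906, 626 and 1249 in the knockouts. The lowest knockout, 73, lay above the highest control, and the difference was 1.23 (SE 0.36, 95% confidence interval 0.39 to 2.08, 2.35-fold, limma adjusted p = 0.125). The other Wisp1 probe set, 1448593_at, had tightly grouped controls at 229, 196 and 230 against 571, 425 and 848 in the knockouts. Its difference was 1.38 (SE 0.26, 2.60-fold), and its limma adjusted p of 0.118 in a fit of all 34945 probe sets with 1 symbol and no filter was the lowest of the 18. Wisp2, a CCN protein that lacks the C-terminal module of its relatives and is known for restraining smooth muscle growth, read 284, 701 and 800 in the controls and 372, 337 and 239 in the knockouts. Control 30 fell among the knockouts, while the other controls lay well above them. The difference was -0.84 (SE 0.40, 95% confidence interval -1.80 to 0.11, limma adjusted p = 0.276). Single controls moved this log2 difference either way: it was -1.31 (limma adjusted p = 0.0581) without control 30 and -0.56 (limma adjusted p = 0.548) without control 75. Without knockout 86 it was -0.66 (limma adjusted p = 0.572).

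Over all 18 probe sets, 15 of which reached the filter, the fit without a filter called 0, where 0.572% of the 34945 probe sets were called. The groups did not overlap on 9 of the 18, against 21.1% of all; 7 of these were higher and 2 lower, and they are all those of Frzb, Sfrp4, Sfrp5, Dkk3 and Wisp1. The exact permutation p was 0.1 for each of the 9, the smallest possible. Where a member had several probe sets above or below the filter, those of Frzb, Sfrp5, Dkk3 and Wisp1 had the same sign, and those of Sfrp1 did not. The second Frzb probe set, counted here, lay under the filter level. As with the genes, these counts support no statement on the group.

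**Figure D3:**
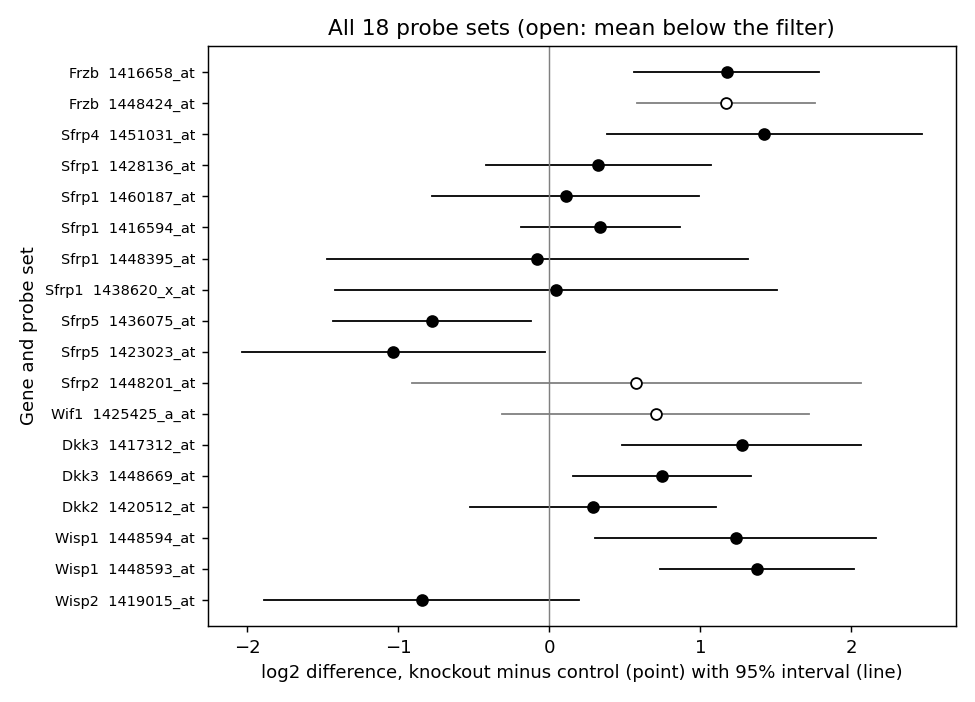
Log2 difference, knockout minus control, of each of the 18 probe sets (points, open where the mean lies below the filter) with its 95% confidence interval from the limma fit of all probe sets with 1 symbol (lines). The 9 intervals that leave out 0 belong to both Frzb, Dkk3, Wisp1 and Sfrp5 probe sets and to Sfrp4, and those of Sfrp1, Sfrp2, Wif1, Dkk2 and Wisp2 cross it.

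The members varied within the control group as well as between groups. Across the 6 arrays Sfrp5 and Wisp2 had a Pearson r of 0.91, Sfrp5 and Dkk3 one of -0.97, and Dkk3 and Wisp2 one of -0.93, while Sfrp4 and Frzb had one of 0.93; these values describe arrays that share the group difference and the composition of the vessels. Control 30 was the array that joined the knockouts on Wisp2 and approached them on Sfrp5 and Dkk3, yet lay farthest from them on Sfrp4 and Frzb. For Dkk3 this holds on the probe set with the highest mean, while on the other one controls 30 and 75 read 294 and 291.

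The level of cell type markers differed between arrays as well. Adipocyte markers (4 of 6 tested: Adipoq, Cidec, Fabp4 and Lep) had a mean log2 value of 9.68 in control 30, 11.53 in control 74 and 11.35 in control 75, and of 10.85, 10.78 and 9.85 in knockouts 72, 73 and 86. Fibroblast markers (7 of 8 tested) lay at 10.99, 11.54 and 11.59 in the controls and between 11.63 and 11.77 in the knockouts; control 30 was lowest, as it was for Sfrp4 and Frzb. Macrophage markers (8 of 8 tested) lay between 7.63 and 8.47 in the controls and between 8.85 and 10.51 in the knockouts, with knockout 73 highest. Of these, Cd68 and Aif1, named for their low control means of 6.25 and 6.15, reached the filter level of 6.50 only by their knockout signal. In each of these lists limma called 0 genes after adjustment, and at an unadjusted p under 0.05 there were 0 of 4, 2 of 7 and 6 of 8. Of all genes tested, limma called 2.42%, and 21.4% had an unadjusted p under 0.05. The 6 macrophage markers include Aif1. Each of the 7 smooth muscle markers was lower in the knockouts on average (6 of 7 with no normalization between arrays, where Acta2 was higher), with a median difference of -0.34, and 3 had no overlap between the groups. Lmod1, an actin filament nucleator of smooth muscle and named after its values were seen, had the largest of these differences, at -1.20 (SE 0.24, limma adjusted p = 0.0567). Each of the 7 endothelial markers was also lower on average, with a median of -0.56 and 3 without overlap. The Schwann cell markers tested (S100b and Sox10, of 4 listed) were lower without overlap, with a mean log2 value of 9.69 to 10.18 in the controls and 8.89 to 9.42 in the knockouts. For these lists limma called 0 genes after adjustment, and at an unadjusted p under 0.05 there were 3 of 7, 3 of 7 and 2 of 2, beside the 21.4% of all genes. Lower without overlap were 15.1% of all genes tested. Of the lymphatic markers 3 of 4 were tested and all overlapped. Of the 4 lymphocyte markers only Ptprc was tested, a surface protein of leukocytes in general, and it stood at 2.32 (limma adjusted p = 0.103) without overlap. Of the cell cycle markers 5 of 5 tested were called higher by limma, where 1.76% of all genes tested were. Their list mean was 5.92 to 6.15 in the controls and 9.73 to 10.49 in the knockouts. The control mean of each of the 5 lay under the filter level of 6.50. They were thus tested only by virtue of their knockout signal, and the count supports no statement on this list. The part of these cell types in the values of the secreted Wnt modulators was not tested.

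**Figure D4:**
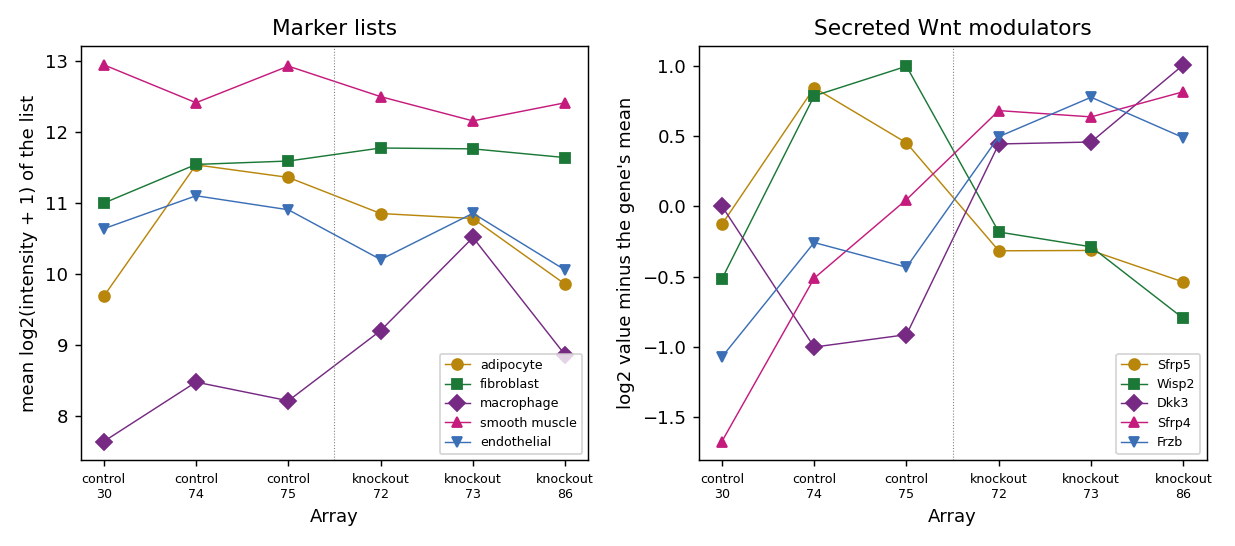
Left, mean log2(intensity + 1) of 5 marker lists in each array; right, log2 value of 5 secreted Wnt modulators minus the gene's mean over the 6 arrays; lines join points of 1 list or gene, and controls stand left of the dotted line. Adipocyte markers are low in control 30 (9.68) and knockout 86 (9.85), where Sfrp5 and Wisp2 are also the lowest of their groups. In knockouts 72 and 73 these markers lie above control 30, at 10.85 and 10.78. Sfrp5 log2 values there are 10.56 and 10.57, under the 10.75 of control 30, and those of Wisp2 are 8.50 and 8.39, above its 8.16.

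The rest of the Wnt pathway was read from lists of ligands, receptors and other parts. The lists hold 99 genes, of which 97 have a probe set here and 62 were tested. Among the 62, 1 rose and 0 fell over all genes (limma), where 1.76% and 0.657% of all genes did. On average 23 were higher and 39 lower, where 4597 of all 10654 genes tested were higher and 6057 lower. The median difference was -0.13 beside -0.05 over all genes.

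The gene that rose was Cd44, the hyaluronan receptor, one of 8 tested Wnt target genes. Its log2 values were 10.65, 9.74 and 10.24 in the controls and 11.83, 11.92 and 12.27 in the knockouts, without overlap. The difference was 1.80 (SE 0.25, limma adjusted p = 0.0203), and Cd44 no longer passed without control 75 or without any one of the 3 knockouts. Axin2, a feedback inhibitor transcribed in response to beta-catenin and chosen here after its values were seen, read 7.96, 8.23 and 8.26 in the controls and 8.08, 8.40 and 7.29 in the knockouts, with overlapping groups (-0.23, SE 0.28, limma adjusted p = 0.675). Myc, a growth regulator on the same list and likewise named after its values were seen, read 7.07, 7.53 and 6.63 in the controls and 7.90, 7.83 and 8.24 in the knockouts, without overlap. Its difference was 0.92 (SE 0.24, limma adjusted p = 0.107), and among the alternatives run it passed with array weights alone.

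Of the other secreted modulators, 6 of 15 were tested, 0 passed, 1 was higher and 5 lower, with a median of -0.50. Apcdd1, an inhibitor at the cell surface, stood at -0.93 (SE 0.24, limma adjusted p = 0.102), and its values of 9.27 to 9.96 in the knockouts lay below the controls at 10.29 to 10.88. Rspo3, a Wnt enhancer that binds Lgr receptors, stood at -1.11 (SE 0.48, limma adjusted p = 0.238) with overlapping groups. Its mean log2 value was 7.36 in the controls and 6.25 in the knockouts, the latter under the filter level. Rspo3 was thus tested only by virtue of its control signal, and the count of 5 lower and the median include it. Of the other CCN genes, 3 of 4 were tested and 0 passed: Ctgf stood at 0.52 (limma adjusted p = 0.18) and Nov at -0.42 (limma adjusted p = 0.254), both without overlap.

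Of the genes for Wnt ligands and their secretion, 8 of 21 were tested and 0 passed, with a median of -0.08. Porcn, the enzyme that attaches the lipid Wnts need for secretion, stood at -0.94 (SE 0.21, limma adjusted p = 0.0718), and Wnt9a at -0.48 (SE 0.15, limma adjusted p = 0.134). Wnt5a, the ligand that Sfrp5 binds and named after its values were seen, stood at 0.05 (SE 0.24, limma adjusted p = 0.933).

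Of the receptor genes, 18 of 24 were tested and 0 passed; 5 were higher and 13 lower, with a median of -0.35. Fzd6 had the smallest p, at -0.62 (SE 0.13, limma adjusted p = 0.0619), with 9.70 to 9.89 in the controls and 9.07 to 9.32 in the knockouts. Lgr4, a receptor of R-spondins, stood at -0.48 (SE 0.12, limma adjusted p = 0.0916). Of the intracellular components, 19 of 24 were tested and 0 passed, 0 at an unadjusted p under 0.05, with a median of -0.07. Btrc, a ubiquitin ligase subunit that marks beta-catenin for breakdown, stood at -0.52 (limma adjusted p = 0.291) and Dvl2, which relays the receptor signal, at -0.28 (limma adjusted p = 0.334). Ctnnb1, the beta-catenin gene, named after its values were seen, stood at 0.03 (SE 0.11, limma adjusted p = 0.903).

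**Figure D5:**
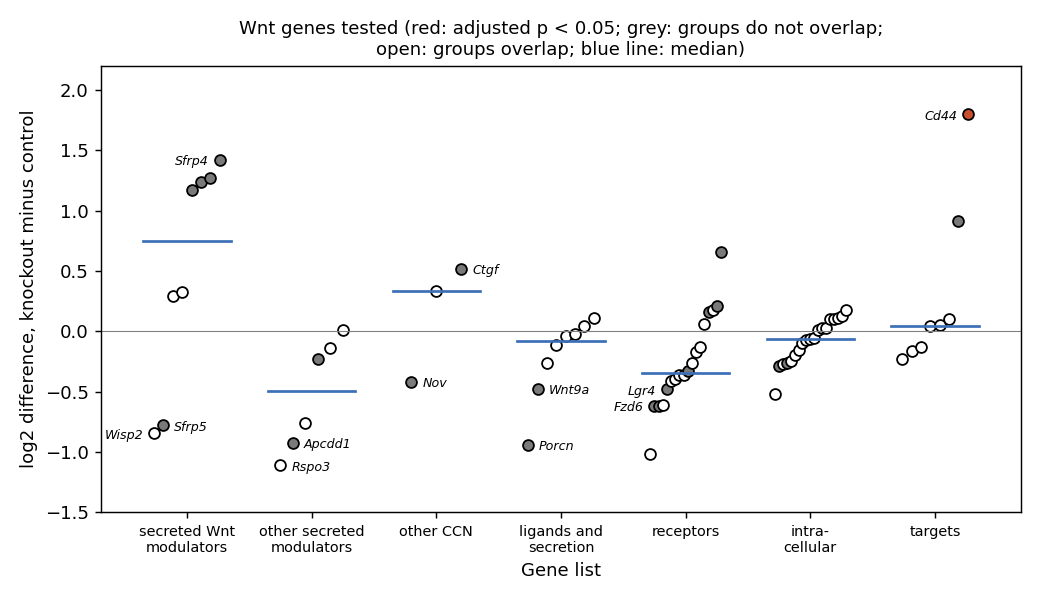
Log2 difference, knockout minus control, of each tested gene (points) in the secreted Wnt modulators and 6 further Wnt lists (horizontal axis), ordered by size within a list, with the list median as a blue line. Cd44 is the only red point, an adjusted p under 0.05, and grey points are genes whose groups do not overlap.

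The tested genes whose pattern was most like that of a member, by Pearson r over the 6 arrays, were named as a description, and none passed the limma threshold. For Wisp1 they were Itgav, the alpha-v integrin subunit (r of 0.999), Atp8b2 and Rnf150. For Dkk3 they were Ensa (0.994), Sec24d and Lamc1, a laminin chain. For Frzb they were Krtcap2 (0.995), Dnajc9 and Clic1, and for Sfrp4 they were Serf2 (0.987), Ssc5d and Kremen1, a receptor of Dickkopf proteins. For Sfrp5 they were Zdhhc4 (0.998), Unc80 and Fgfbp3, for Wisp2 Nat8f1 (0.990), Vmac and Ube2d-ps, for Sfrp1 Vangl1 (0.983), Flrt2 and Plbd2, and for Dkk2 Chm (0.971), N6amt1 and Lrig1. The number of genes with an r above 0.95 ran from 4 with Dkk2 to 156 with Sfrp5, over 6 arrays that share the group difference.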

How the data were processed

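Biotin-labelled RNA of 6 mice was measured on 1-colour arrays. The authors deposited 1 linear intensity per probe set and array; no source used here says how probes were summarised, background corrected or arrays scaled. On each array 589 to 680 values equal 1, detection calls are not given, and with 3 arrays per group their number sets the precision. Names come from the platform annotation (2016), which gives 34945 probe sets 1 symbol, 932 several and 9160 none; those with 1 symbol entered tests. Gene identifiers were looked up in a RefSeq table of GRCm38.p6.

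Intensities were converted to log2(intensity + 1), which understates differences of dim genes, and quantile normalized. Probe sets with a mean under the median of those with 1 symbol (6.50) were left out, and the probe set with the highest mean stood for each of 10654 genes. Groups were compared with limma 3.58.1 (R 4.3.3), 2-sided, with Benjamini-Hochberg adjustment over all genes. Standard errors of second probe sets come from the same model over all 34945 probe sets. The procedure was tested on simulated data.

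The members and the lists were chosen with earlier results of these data known. The text names all members, Itgb1, from each Wnt list every gene past the threshold or else the 2 with the smallest p, and the 3 genes most like each tested member; other names are marked. Alternatives were other filters, probe set rules, scalings, pseudocounts and priors, array weights, and leaving out each array.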

Additional observations from a re-analysis of the deposited data

How the results depend on the processing

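No tested member changed direction in any alternative run. The count of members past the limma threshold, 0 as reported, was 1 (Frzb) with no normalization between arrays (1.27, adjusted p = 0.0317) or a pseudocount of 16 (1.01, adjusted p = 0.05, just under the threshold), and 4 with array weights (Frzb, Dkk3 and Wisp1 higher, Sfrp5 lower, adjusted p between 0.0147 and 0.048), a setting that gave knockout 72 a weight of 4.59 and control 74 one of 0.38. With 1 array left out it ranged from 0 to 1, being 1 without control 30 (Dkk3) and without control 74 (Frzb). Among the 18 single probe sets the count of 0 became 1 with a trended and robust prior (Wisp1 probe set 1448593_at, adjusted p = 0.0395), and stayed at 0 with any 1 array left out. Over all genes the count of 258 was 141 with the filter at the 70th percentile, 1131 with array weights (547 higher and 584 lower), and 45 to 240 with 1 array left out (45 without knockout 72, 62 without control 75, 69 without knockout 86, 100 without knockout 73, 116 without control 30, 240 without control 74). The count of other Wnt genes, 1 as reported, was 2 with no filter (Cd44 and Fosl1), 2 with median centring (Cd44 and Fzd6), 9 with array weights (2 higher and 7 lower) and 0 to 1 with 1 array left out. Median centring moved the median of all genes to -0.10. No paired analysis was possible because the groups share no animal number. Sfrp2, Wif1 and the second Frzb probe set lie under the filter level, where small differences in signal are not measurable.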
